A study of Rattus norvegicus with 6 samples.

Results

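The cluster of miR-143 and miR-145 was followed in rat cardiac fibroblasts and in the exosomes they released. Its members are rno-miR-143-3p, rno-miR-143-5p, rno-miR-145-5p and rno-miR-145-3p, taken by name as every listed arm of the miR-143 and miR-145 hairpins. These were 4 of 728 mature miRNAs listed, and 4 of 4 passed the filter on low counts, as did 698 of all 728. The fibroblasts came from hearts of Wistar rats at postnatal day 1 to 2 and were expanded in medium with 10% fetal bovine serum. For vesicle collection they were kept for 48 h in medium with 1% serum depleted of exosomes. Exosomes, small membrane vesicles, were pelleted from that medium by ultracentrifugation after centrifugation and filtration steps. Small RNA libraries were made from total RNA of 3 fibroblast and 3 exosome samples. They are called fibroblast libraries 1, 2 and 4, exosome libraries 1 and 2, and the unnumbered exosome library, whose column carried no number. No treatment or genotype other than the RNA source separated the groups, and the labels name no number of animals or cultures behind a library. What the p-values below measure is therefore the spread among these 6 libraries, and that spread may be purely technical.

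miRNAs are short RNAs that guide Argonaute proteins to messenger RNAs, mainly through the seed, the bases near the 5′ end. A hairpin precursor is cut into an arm from each side, of which the more abundant is usually called the guide and the other the passenger. miR-143 and miR-145 are processed from a shared primary transcript and are best known from smooth muscle, where serum response factor and myocardin drive them. There they repress KLF4, KLF5 and ELK1 and favour the contractile state. In fibroblasts they have been studied in the myofibroblast response to TGF-beta.

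The RefSeq table of the rat (build GRCr8) held a mature sequence for 655 of the 728 listed names, all 4 members among them. Both hairpins lay on the minus strand within the span of Carmn, a long non-coding RNA gene, with 0 annotated genes between them. No coordinates are given, since the counts were made on another build, rn5. The mature sequences are shown because each arm was counted as a feature of its own, with the seed (bases 2 to 8) in capitals.
miR-143-3p: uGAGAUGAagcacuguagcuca
miR-143-5p: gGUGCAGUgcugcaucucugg
miR-145-5p: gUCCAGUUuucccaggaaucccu
miR-145-3p: gGAUUCCUggaaauacuguuc

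The 4 seeds differed, and each was found in 1 of the 693 mature names of the table, its own member. Each mature sequence had 1 locus there. The longest run of bases shared with any other mature miRNA was 8 for miR-143-3p (with miR-3548), 10 for miR-143-5p (with miR-3584-3p), 8 for miR-145-5p (with miR-191a-5p) and 7 for miR-145-3p (with miR-200c-3p). Lengths were 22, 21, 23 and 21 bases in the order shown. The hairpins are shown because the arm comparison rests on them, with both arms in capitals.
Mir143: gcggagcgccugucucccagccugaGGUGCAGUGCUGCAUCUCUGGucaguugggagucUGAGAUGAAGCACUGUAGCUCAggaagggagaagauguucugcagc
Mir145: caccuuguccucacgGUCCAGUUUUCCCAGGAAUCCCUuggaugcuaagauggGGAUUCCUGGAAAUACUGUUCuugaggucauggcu

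The miR-143 hairpin spans 105 bases with 13 between its arms, and the miR-145 hairpin spans 88 bases with 15 between them.

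Depth differed between the groups. Exosome libraries held 113129 to 120224 miRNA counts and fibroblast libraries 2439559 to 12508651. One miRNA, miR-873-3p, took 84.9% to 90.1% of the exosome counts and 0.391% to 2.37% of the fibroblast counts, which left 11825 to 18164 other counts per exosome library. Shares are therefore given of all counts and of counts without miR-873-3p. Where a miRNA had no read, its share could still be up to 0.00250% to 0.00265% of an exosome library (3 counts of the total), or 0.0165% to 0.0254% without miR-873-3p. Counting error is all that these limits and the binomial intervals below cover, because PCR copies of a molecule are read as separate counts. The labelled cell type was checked on marker miRNAs. Fibroblast and other mesenchymal markers (12 arms) held 26.3% to 29.5% of fibroblast counts, and cardiomyocyte and muscle markers (14 arms) 0.0254% to 0.0719%. Most of the mesenchymal share was miR-22-3p and miR-21-5p, at fibroblast means of 15.9% and 8.85%. Each of the 14 muscle arms had reads in each fibroblast library, with miR-208a-3p, an arm of a miRNA encoded within a cardiac myosin gene, at 201, 328 and 9 counts in libraries 1, 2 and 4. As shares of all counts the muscle markers of exosomes, at 0.0218% to 0.0957%, overlapped those of fibroblasts. On counts without miR-873-3p the muscle markers held 0.220% to 0.633% of exosome counts and 0.0260% to 0.0722% of fibroblast counts, and did not overlap. Markers of endothelium (0.639% to 0.973% against 0.0101% to 0.0156%), blood cells (0.296% to 0.537% against 0.0288% to 0.0817%), epithelium (0.448% to 0.870% against 0.0191% to 0.0576%) and liver or serum (0.0209% to 0.0716% against 0.00239% to 0.00938%) were likewise higher in exosomes on that base, where 377 of all 698 tested miRNAs were called higher and the median log2 fold change was 2.37. Under TMM, which scales libraries by the bulk of the miRNAs, the median log2 fold changes were 0.59 for muscle, 0.09 for blood cells, 0.98 for epithelium and 0.17 for liver or serum, against -0.15 over all tested miRNAs. Endothelium was apart on all counts too, at 0.0840% to 0.0966% of exosome and 0.0100% to 0.0152% of fibroblast counts. Of its 2 arms miR-126a-3p was called higher under TMM (log2 4.85, edgeR adjusted p = 1.3e-06) and miR-126a-5p was not (0.30, 0.78). On counts without miR-873-3p the mesenchymal markers held 2.81% to 8.63% of exosome and 27.0% to 29.8% of fibroblast counts. Under TMM their median log2 fold change was -4.34. Of the 12 arms 8 were called lower and 0 higher, against 130 and 79 of all 698 tested miRNAs. The part of these shifts in the values below was not tested.

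miR-143-3p, the guide arm of miR-143, was the most abundant miRNA of the fibroblasts. It had 1468887, 3076033 and 672169 counts in fibroblast libraries 1, 2 and 4 and ranked first in 3 of 3. Its shares there were 23.0%, 24.6% and 27.6%, a mean of 25.1% ± 2.30 (SD, n = 3), with a coefficient of variation of 9.16%, which was 47.4% on TMM-scaled counts. In exosome libraries 1, 2 and unnumbered it had 15, 72 and 646 counts and ranked at place 230, 33 and 5. In exosomes it took 0.0125% of counts (exact Clopper-Pearson 95% interval 0.00698 to 0.0206), 0.0636% (0.0498 to 0.0801) and 0.543% (0.502 to 0.586). The 3 intervals did not meet, and the unnumbered library stood far above the other 2. Every exosome share lay below every fibroblast share, and the highest exosome share was 0.0236 times the lowest fibroblast share. Without miR-873-3p in the total the exosome shares were 0.0826%, 0.502% and 5.46% against 23.3%, 24.7% and 28.2% in fibroblasts, and the groups again did not overlap.

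miR-145-5p, the arm of miR-145 usually taken as its guide, was far scarcer than miR-143-3p in the same cells. It had 3566, 9555 and 1078 counts in fibroblast libraries 1, 2 and 4, at ranks 87, 84 and 108. As CPM, counts scaled to the same miRNA total in every library, these were 559, 764 and 442, a mean of 588 ± 163 (SD, n = 3). Fibroblast library 2 was the highest and library 4 the lowest. Exosome libraries 1, 2 and unnumbered held 3, 4 and 3 counts, or 25.0, 35.4 and 25.2 CPM, a mean of 28.5 ± 5.93 (SD, n = 3). All exosome values were below all fibroblast values, both in CPM of the total and without miR-873-3p, where they were 165, 279 and 254 against 566, 767 and 453 CPM.

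miR-145-3p, the opposite arm, was nearly as abundant as miR-145-5p in fibroblasts. It had 2749, 5238 and 956 counts there, at 431, 419 and 392 CPM, a mean of 414 ± 20.04 (SD, n = 3). Of the 4 members it varied least between fibroblast libraries by share of all counts, with a coefficient of variation of 4.84%, but on TMM-scaled CPM that figure was 39.6% and miR-143-5p varied least, at 6.16%. The exosome counts were 4, 7 and 0, or 33.3, 61.9 and 0 CPM. The unnumbered exosome library, which held the most miR-143-3p, held no read of miR-145-3p, which at its depth allows up to 0.00252% of counts. Exosome CPM of the total lay below all fibroblast values. Without miR-873-3p the exosome values of 220, 488 and 0 CPM overlapped the fibroblast values of 437, 420 and 401 CPM, through exosome library 2.

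miR-143-5p, the passenger arm of miR-143, was the scarcest member in fibroblasts. Its counts were 580, 2322 and 201, or 90.9, 186 and 82.4 CPM, and fibroblast library 2 stood above the other 2. Exosome libraries 1, 2 and unnumbered held 3, 5 and 7 counts, or 25.0, 44.2 and 58.8 CPM. The groups did not overlap in CPM of the total, where the fibroblast mean was 2.80 times the exosome mean. On counts without miR-873-3p the order turned, with 165, 349 and 592 CPM in exosomes and 92.1, 186 and 84.4 CPM in fibroblasts, and the groups overlapped.

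**Figure D1:**
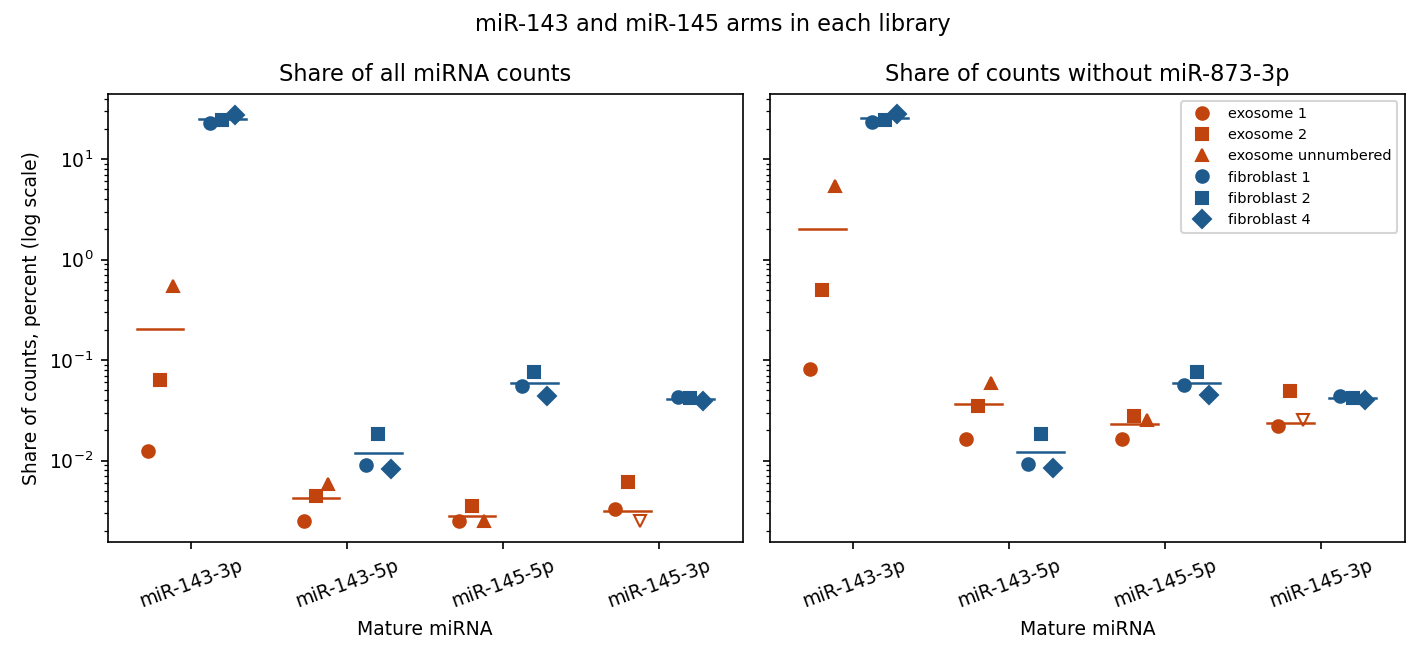
Share of counts (percent, log scale) of each member in each library, of all miRNA counts (left) and of counts without miR-873-3p (right); symbols are libraries, horizontal lines group means, and the open triangle marks the upper limit of 3 counts for miR-145-3p at a count of 0 in the unnumbered exosome library. miR-143-3p runs from 0.0125% to 0.543% in exosomes and from 23.0% to 27.6% in fibroblasts (left), while the exosome and fibroblast values of miR-143-5p and miR-145-3p overlap on the right.

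The order of the members by mean fibroblast share was miR-143-3p (25.1%), miR-145-5p (0.0588% ± 0.0163), miR-145-3p (0.0414% ± 0.00200) and miR-143-5p (0.0120% ± 0.00573; SD, n = 3 each). In each of the 3 fibroblast libraries this order was the same. miR-145-5p and miR-145-3p were the neighbours closest to each other, and their mean shares differed by about the SD of miR-145-5p, although miR-145-5p was the higher in 3 of 3 libraries. In exosomes miR-143-3p was the highest in 3 of 3 libraries, while the other 3 members had 0 to 7 counts each and no order among the 3 that held in every library. For comparison, the median miRNA had 8, 7 and 3 counts in exosome libraries 1, 2 and unnumbered. miR-145-5p and miR-145-3p were at or below that median in 3 of 3 exosome libraries, miR-143-5p in 2 and miR-143-3p in 0. Whether reads of this size come from the vesicles was not tested.

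The first comparison asked whether the members differed in relative abundance between exosomes and the cells that released them. miR-143-3p, miR-145-5p and miR-145-3p were lower in exosomes, and miR-143-5p did not pass the test. The fit covered all 698 tested miRNAs, of which 18.6% were called lower (quasi-likelihood test of edgeR, Benjamini-Hochberg adjustment, threshold 0.05, TMM scaling). Against that background 3 of 4 members were called. miR-145-5p was 15.9-fold lower, with a log2 fold change of -3.99 (SE 0.82, edgeR adjusted p = 2.8e-05). miR-145-3p was 12.5-fold lower, at -3.64 (SE 0.77, edgeR adjusted p = 4.9e-05). miR-143-3p, at -5.75 (SE 2.26, edgeR adjusted p = 0.038), had the largest fold change of the members and the widest error, with exosome counts from 15 to 646. miR-143-5p was at -0.88 (SE 0.67, edgeR adjusted p = 0.36). On the TMM-scaled CPM the 2 groups did not overlap for miR-143-3p, miR-145-5p and miR-145-3p and overlapped for miR-143-5p, where no overlap was found for 39.4% of all tested miRNAs. In these bulk libraries, fewer vesicles that carry a miRNA and fewer copies per vesicle cannot be told apart.

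Single libraries bore on these values. Without exosome library 1 or 2 miR-143-3p was no longer called (log2 -5.19, edgeR adjusted p = 0.18, and -5.78, adjusted p = 0.13), and without the unnumbered library its log2 fold change was -9.60 (SE 1.92, edgeR adjusted p = 1.5e-05). Over its 15 other settings its adjusted p ran from 2.2e-08 to 0.18. miR-145-5p kept its call in each of the 6 fits that left out 1 library, with log2 fold changes from -4.44 to -3.74. miR-145-3p kept it as well, but moved to -4.75 without exosome library 2, a 26.8-fold difference.

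The scaling between libraries moved the fold change of each member. Under TMM the log2 fold changes of the tested miRNAs had a median of -0.15, with DESeq2's size factors in edgeR -0.08, with total counts -0.57, with miR-873-3p left out of library sizes and TMM 0.20, and with library sizes from all reads, those assigned to no miRNA included, -0.95. Under these 5 scalings miR-143-3p, miR-145-5p and miR-145-3p were called lower, at -7.32 to -5.72, -4.86 to -3.67 and -4.32 to -3.26. With all reads miR-143-5p was called lower too (log2 -1.86, edgeR adjusted p = 0.042). A further scaling, total counts without miR-873-3p and no TMM factor, was chosen after seeing the data. It moved the median of all miRNAs to 2.37, and there miR-145-5p (log2 -1.37, edgeR adjusted p = 0.15) and miR-145-3p (-0.79, 0.43) were not called, while miR-143-3p was (-3.66, 0.00059). miR-143-5p turned to 1.57 (edgeR adjusted p = 0.13). Relative to the median of all miRNAs the values moved little between TMM and that last scaling. They were -0.73 and -0.80 for miR-143-5p, -3.84 and -3.74 for miR-145-5p, -3.49 and -3.16 for miR-145-3p, and -5.60 and -6.03 for miR-143-3p. A change of library sizes shifts all miRNAs nearly alike, so this steadiness is largely built in and is no support for the calls. Over their 15 other settings the edgeR or DESeq2 adjusted p ran from 6.8e-08 to 0.15 for miR-145-5p and from 7.2e-07 to 0.43 for miR-145-3p, and over 13 from 0.042 to 0.79 for miR-143-5p.

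**Figure D2:**
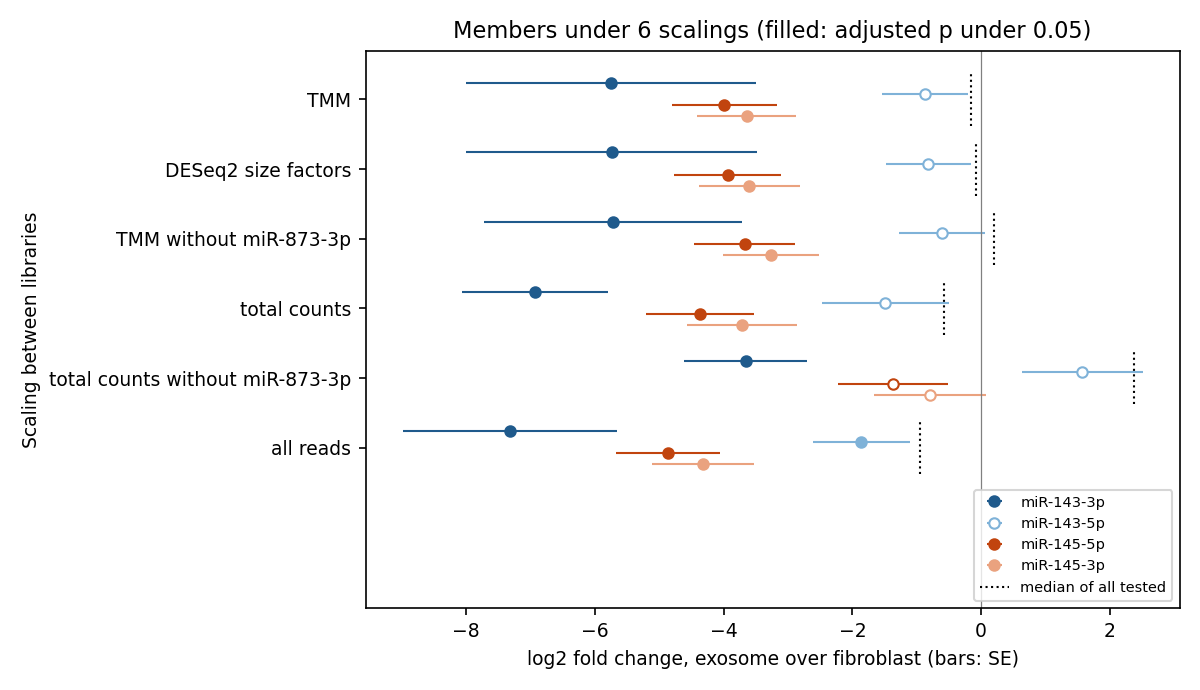
Log2 fold change of each member (exosome over fibroblast, bars are SE) under 6 scalings between libraries, filled where edgeR's adjusted p is under 0.05, with the median of all 698 tested miRNAs as a dotted line. miR-143-3p is filled under each scaling and lies between -7.32 and -3.66, while the miR-145 arms lose their call and miR-143-5p changes sign where miR-873-3p is left out of total counts.

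A plain count of reads shows what the depth of the exosome libraries could resolve. At the mean fibroblast share without miR-873-3p, the 3 exosome libraries together would hold 11264 reads of miR-143-3p, and 733 were found, or 6.51%. The found share was 0.325%, 1.98% and 21.5% of that number in exosome libraries 1, 2 and unnumbered. For miR-145-5p 26.4 reads would be held and 10 were found, for miR-145-3p 18.6 and 11, and for miR-143-5p 5.36 and 15. The fold changes of these 3 members rest on 10 to 15 exosome reads each.

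The authors' deposited table, made with DESeq, lists fibroblast over exosome values for the same members, and its 2 mean columns equal the means of the normalized counts over each group. In the authors' deposited table miR-143-3p had the smallest p-value of the 728 miRNAs, with a mean normalized count of 195875 in fibroblasts and 3711 in exosomes and an adjusted p of 3.06e-05. miR-145-5p stood at 416 against 30.6 (adjusted p = 0.0166 in the authors' deposited table) and miR-145-3p at 317 against 20.5 (adjusted p = 0.0440 in the authors' deposited table). miR-143-5p stood at 78.7 against 54.7 there, with an adjusted p of 1. An adjusted p under 0.05 with the higher value in fibroblasts was listed for 7.28% of miRNAs in the authors' deposited table, and 3 of the 4 members were among them.

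The second comparison set the members against each other within a library, which does not depend on the scaling between libraries. In fibroblasts the 2 arms of miR-143 were very unequal, with 2533, 1325 and 3344 reads of miR-143-3p per read of miR-143-5p in libraries 1, 2 and 4. In exosome libraries 1, 2 and unnumbered there were 5, 14.4 and 92.3. The log2 ratio of miR-143-5p over miR-143-3p (0.5 added to each count) was -11.13 ± 0.68 in the cells and -4.10 ± 2.17 in their exosomes (SD, n = 3 each), with no overlap. This gave an exact two-sided permutation p of 0.1, the smallest that 3 against 3 libraries allow, and 0.15 adjusted over the 3 ratios tested. With 0.5 added, an exosome library without any read of miR-143-5p would also have stood above every fibroblast library. The lack of overlap and this p were therefore fixed by depth and cannot show a change in arm use. At the fibroblast ratio the exosome libraries would hold 0.00724, 0.0348 and 0.312 reads of miR-143-5p, and 3, 5 and 7 were found.

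Arm use was also tested over all hairpins with both arms past the filter, 248 in number (edgeR's diffSpliceDGE, Benjamini-Hochberg adjustment over 496 arms). miR-143-5p was higher in exosomes relative to its hairpin by 4.90 on the log2 scale (edgeR adjusted p = 4.0e-06), and 13.9% of arms were called. Without the unnumbered exosome library the value was 7.66 (edgeR adjusted p = 7.9e-11), and over 7 other settings the adjusted p ran from 7.9e-11 to 0.0044. Lower ratios of major to minor arm were common, but the major arm was named by the fibroblast counts that form a side of the comparison, so the naming itself favours that direction. The ratio was lower in exosomes for 179 of the 248 hairpins, with a median change of -0.999 (log2) against -4.87 for miR-143, at place 17 from the most negative. The miR-143 hairpin had the third most unequal arms in fibroblasts, with a mean log2 ratio of 11.13 where the median hairpin had 1.63. With 15 to 646 exosome reads of miR-143-3p, a single read of miR-143-5p already gives a ratio below the lowest fibroblast ratio of 1325.

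The arms of miR-145 were near balance in fibroblasts, and in exosomes they had too few reads to tell. Fibroblast libraries 1, 2 and 4 held 1.30, 1.82 and 1.13 reads of miR-145-5p per read of miR-145-3p, and exosome libraries 1 and 2 held 0.750 and 0.571, on 3 to 7 reads an arm. The unnumbered exosome library held 3 reads of miR-145-5p and 0 of miR-145-3p. The log2 ratio of miR-145-3p over miR-145-5p was -0.47 ± 0.36 in the cells and -0.57 ± 1.95 in their exosomes (SD, n = 3 each, exact two-sided permutation p = 1, also after adjustment). Neither arm was called for arm use (edgeR adjusted p = 0.98 for miR-145-3p and 0.99 for miR-145-5p). The SD of 1.95 shows that a sizeable shift in exosomes was not detectable at this depth.

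Between the hairpins, which share a primary transcript, the guide arms were also unequal. Fibroblast libraries 1, 2 and 4 held 412, 322 and 624 reads of miR-143-3p per read of miR-145-5p, and exosome libraries 1, 2 and unnumbered 5, 18 and 215. The log2 ratio of miR-145-5p over miR-143-3p was -4.56 ± 2.73 in exosomes and -8.77 ± 0.48 in fibroblasts, without overlap (SD, n = 3 each, exact two-sided permutation p = 0.1, the smallest possible, and 0.15 adjusted over the 3 ratios). The unnumbered exosome library, at -7.53, came closest to the fibroblasts, whose highest value was -8.33. miR-143-3p made up 99.5%, 99.4% and 99.7% of the cluster's reads in fibroblasts. In exosome libraries 1, 2 and unnumbered it made up 15 of 25 reads (exact Clopper-Pearson 95% interval 38.7% to 78.9%), 81.8% (72.2 to 89.2, of 88) and 98.5% (97.2 to 99.3, of 656).

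**Figure D3:**
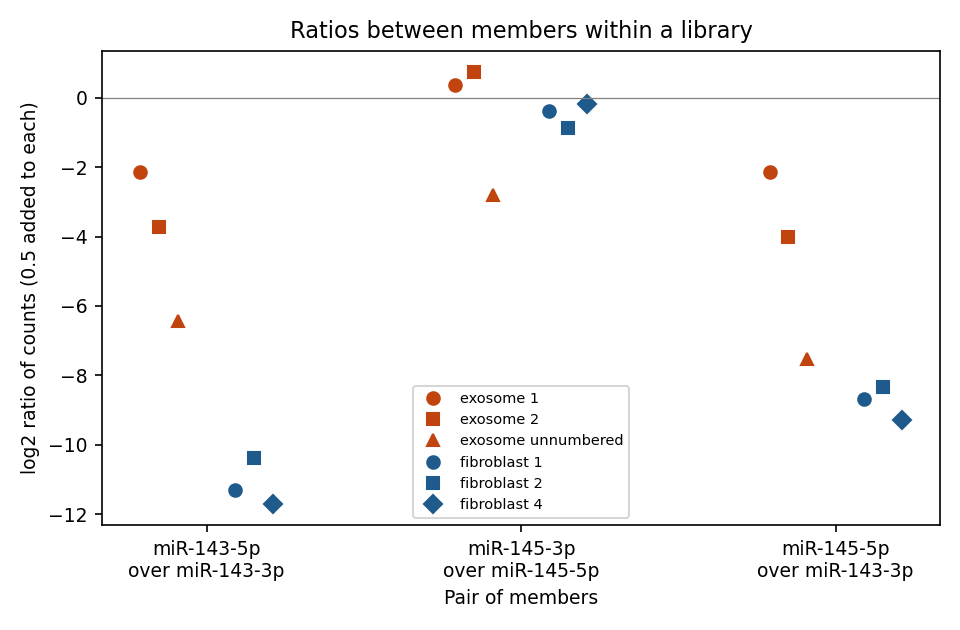
Log2 ratio of counts (0.5 added to each) for 3 pairs of members within each library, exosomes in orange and fibroblasts in blue. The ratios to miR-143-3p are higher in each exosome library than in any fibroblast library, with the unnumbered exosome library nearest to the fibroblasts, and the 2 arms of miR-145 overlap between groups. For miR-143-5p over miR-143-3p, the 0.5 added would place each exosome library there even without a read of miR-143-5p.

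**Figure D4:**
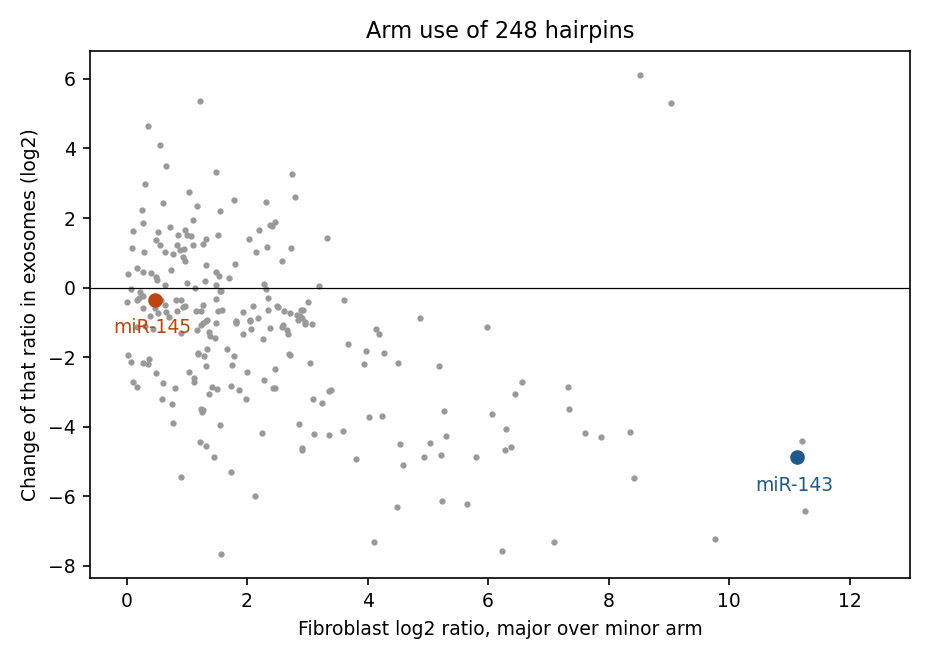
Each point is 1 of 248 hairpins, with the fibroblast log2 ratio of its major over its minor arm (x axis) and the change of that ratio in exosomes (y axis, log2). miR-143 lies at 11.13 and -4.87, where most hairpins with unequal arms have a lower ratio in exosomes, and miR-145 at 0.47 and -0.35.

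Together the 4 members held 23.1%, 24.7% and 27.6% of the counts of fibroblast libraries 1, 2 and 4. They held 0.0208%, 0.0778% and 0.551% of those of exosome libraries 1, 2 and unnumbered. The means were 25.2% ± 2.28 and 0.217% ± 0.291 (SD, n = 3 each, exact two-sided permutation p = 0.1, the smallest possible). Without miR-873-3p in the total the means were 25.5% ± 2.52 and 2.10% ± 3.00, with the same exact permutation p of 0.1. In fibroblasts nearly all of this was miR-143-3p.

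Ranked by mean TMM-scaled CPM in fibroblasts, miR-143-3p stood above miR-22-3p, miR-21-5p and miR-181a-5p. Its fibroblast values ran from 123619 to 347705 on that scale and those of miR-22-3p from 78690 to 183626, so the ranges of the first and second miRNA overlapped. miR-145-5p stood at place 95 with 506 CPM, between miR-671, miR-501-3p and miR-182 above it and miR-92b-5p, miR-23b-3p and miR-222-3p below. These 6 neighbours had exosome log2 fold changes from -2.96 (miR-23b-3p) to 2.29 (miR-92b-5p), all above the -3.99 of miR-145-5p. miR-145-3p stood at place 118, with miR-6216, miR-3068-3p and miR-347 above and miR-339-3p, miR-542-3p and miR-760-5p below, whose fold changes ran from -3.01 (miR-6216) to 0.14 (miR-760-5p). miR-143-5p stood at place 271, among miR-195-3p, miR-708-3p and miR-664-3p above and miR-142-5p, miR-326-5p and miR-19b-3p below, and of these 6 only miR-664-3p was called (log2 -1.77, edgeR adjusted p = 0.041). Among all 698 tested miRNAs, the fold changes of miR-145-5p and miR-145-3p were at places 48 and 55 from the most negative. The difference between a member and its neighbours was not tested.

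The miRNAs most like each member were sought among those with a mean CPM of 50 or more, by Pearson's r of log2(TMM-scaled CPM + 1) across the 6 libraries. These values are a description, since the 6 libraries fall into the 2 groups, which also differ in depth. miR-143-3p was most like miR-191a-5p (r = 0.995), miR-22-3p (0.994), miR-125a-5p (0.993), miR-16-5p (0.993) and miR-125b-5p (0.992). All 5 had their highest exosome count in the unnumbered library, for example miR-191a-5p with 22, 32 and 135 counts. miR-145-5p was most like miR-140-3p (r = 0.997), miR-301a-3p (0.992), miR-181b-5p (0.992), miR-31a-5p (0.988) and miR-155-5p (0.986). miR-145-3p was most like miR-3577 (r = 0.991), miR-487b-3p (0.989), miR-3473 (0.972), miR-3068-3p (0.971) and miR-542-3p (0.944), which had 0 to 2 counts in the unnumbered exosome library. miR-143-5p was most like miR-345-3p (r = 0.957), miR-92a-2-5p (0.946), miR-30c-2-3p (0.929), miR-107-3p (0.923) and miR-219a-2-3p (0.911). Among the members themselves r was 0.969 for miR-143-3p and miR-145-5p, 0.863 for the arms of miR-143, 0.714 for miR-143-5p and miR-145-5p, 0.689 for the arms of miR-145, 0.502 for miR-143-3p and miR-145-3p and 0.0247 for miR-143-5p and miR-145-3p, so no member was among the 5 nearest of another.

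Other miRNAs studied with this cluster in smooth muscle, myofibroblasts or under serum response factor were described beside it. Of 20 such miRNAs, miR-199b had no listed arm, and the others had 40 arms listed and 36 tested. In exosomes 17 of the 36 were lower, 3 were higher and the others were not called, and their log2 fold changes had a median of -1.14. Over all 698 tested miRNAs 130 were lower and 79 higher, with a median of -0.15. The 6 most abundant of them in fibroblasts were all lower. They were picked by fibroblast abundance, which forms a side of the comparison, so the choice itself favours that direction. miR-22-3p, the second most abundant, had a log2 fold change of -5.11 (SE 2.04, edgeR adjusted p = 0.041). miR-21-5p, which is induced in fibrosis, had -5.23 (SE 1.86, edgeR adjusted p = 0.020). miR-26a-5p had -4.54 (SE 1.48), miR-199a-3p -5.17 (SE 1.48), miR-125b-5p -4.58 (SE 1.32) and miR-125b-1-3p -4.40 (SE 1.14), with edgeR adjusted p from 0.0010 to 0.010. miR-214-3p, whose hairpin is clustered with miR-199a-2, had -4.33 (SE 0.87, edgeR adjusted p = 2.3e-05) on 3 to 5 exosome counts. miR-24-1-5p was higher (log2 1.79, SE 0.61, edgeR adjusted p = 0.015).

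The list also held the cardiac and skeletal muscle miRNAs used as markers above. Of their 14 arms, 10 passed the filter, 1 was lower, 2 were higher and the others were not called. The arm that was lower was miR-499-5p, with 0, 0 and 1 exosome counts (log2 -3.78, SE 1.25, edgeR adjusted p = 0.011). miR-133b-5p (log2 2.44, edgeR adjusted p = 0.00088) and miR-208b-5p (2.55, 0.014) were higher. These muscle arms were scarce throughout, at up to 68 counts in an exosome library, and the part of other cells in them was not tested. Counts of the list, and those of all miRNAs, moved with the setting. Without exosome library 1 the list had 9 lower and 1 higher of 40, where all miRNAs had 86 lower and 54 higher of 720. Without exosome library 2 it had 11 lower of 40, where all had 88 of 724. With total counts without miR-873-3p it had 6 lower and 13 higher of 36, where all had 35 lower and 377 higher of 698, and its median was 1.54 where that of all miRNAs was 2.37.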

How the data were processed

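Small RNA libraries of 3 exosome and 3 fibroblast samples were analysed. A table of raw counts for each mature miRNA, deposited by the authors, was the input of the tests. They also deposited a normalized signal, reads divided by 1 size factor per library. Divided by the value of 1 read, 100% of its values were whole within 0.05, and these reads came to 99.3% to 99.8% of the raw counts. Its last row names no miRNA, held 63.1% to 84.4% of reads and was left out except where all reads are named. The authors' deposited comparison holds, per the file headers, group means, a fold change (a ratio), log2 of it, and p-values before and after adjustment. The submitters' processing notes list CASAVA 1.8.2, cutadapt 1.2.1, DESeq and rn5. Not given in the sources used here are the aligner, the counting rule and the miRNA release, so how reads near an arm's ends were assigned is unknown. Columns were matched to samples by name.

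The tests ran in edgeR 4.0.16 (R 4.3.3): filterByExpr (minimum count 10, minimum total 15), TMM, and two-sided quasi-likelihood tests between the groups, adjusted over 698 miRNAs after Benjamini and Hochberg. An unadjusted p under 0.05 was reached by 263. The filter works on CPM, so a miRNA can pass through the shallow exosome libraries. SE was taken as the log2 fold change over the root of F. Arm use was tested with diffSpliceDGE, and ratios and shares with exact permutation tests (scipy 1.17.1). The fits were tested on simulated data. Other settings were DESeq2 1.42.0, other scalings, no filter, a replicate block, the reads behind the normalized table and each library left out. The members, lists and tests were chosen with earlier results of these data known. Named miRNAs were the members, per member the 5 most alike and 3 on either side by fibroblast rank, miR-873-3p, up to 6 list members by fibroblast abundance, and muscle markers. miR-214-3p and miR-24-1-5p were singled out after their values were seen.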

Additional observations from a re-analysis of the deposited data

How the results depend on the processing

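miR-143-3p kept its direction under all 15 other settings and lost its call with no filter (log2 -5.76, edgeR adjusted p = 0.066) and without exosome library 1 or 2 (range over left-out libraries -9.60 to -5.19). miR-143-5p was called with all reads as library size (-1.86) and with the replicate block (-1.75), and turned to 1.57 with total counts without miR-873-3p, where miR-145-5p (-1.37) and miR-145-3p (-0.79) lost their calls. miR-143-5p did not pass the filter without fibroblast library 1 or 2. Exosomes and fibroblasts share the numbers 1 and 2. The labels do not say that a number marks a shared culture or batch, so the numbers were not used as pairs. Deviations of same-numbered libraries correlated at r = -0.10 and 0.17, and those with the numbers 1 and 2 crossed at 0.21 and -0.03. With 3 libraries a group, these values cannot settle whether the numbers mark pairs. The block moved miR-143-3p to -9.46 (edgeR adjusted p = 0.0017), which kept its call. In that fit the unnumbered exosome library and fibroblast library 4 each stood alone in a block. Its contrast therefore rested on libraries 1 and 2 of each group, and leaving out only the unnumbered library gave -9.60. Among the members only miR-143-5p changed its call with the block (edgeR adjusted p = 0.049). The block gave 138 lower and 96 higher miRNAs against 130 and 79. Counts of lower miRNAs were 196 with all reads, 35 with total counts without miR-873-3p and 86 to 139 with a library left out. Counts of higher ones were 43 with total counts, 37 with all reads, 377 with total counts without miR-873-3p and 46 to 78 with a library left out. miR-145-3p relative to its hairpin ranged from -0.27 to 0.52 with a library left out, and the log2 ratio of the miR-145 arms differed by 0.14 with a pseudocount of 1 and by -0.75 to 1.02 with a library left out, from -0.10. These signs rest on 0 to 7 reads an arm, and the cause of each other change was not tested. The reads behind the normalized table gave 144 lower and 68 higher, and DESeq2 121 and 94. Depth limits 3 of the 4 members, with 10 to 15 exosome reads each. Leaving 1 exosome library out assumes the other 2 show the spread.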
